A study of Mus musculus with 4 samples.

Results

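Angptl2, Hbegf and Slc17a6 are 3 of the 12020 genes analysed in natural killer T (NKT) cells before and after stimulation of their antigen receptor. They were chosen because their transcripts were nearly absent from both libraries of resting cells and abundant in both libraries of stimulated cells, so that difference is described here and not tested. Polyadenylated RNA was sequenced from 2 libraries of resting and 2 of tetramer-stimulated cells. Both groups came from C57BL/6 mice aged 10 to 12 weeks that carried a Va14 receptor transgene and 1 Cxcr6 allele with GFP (cxcr6gfp/+). The cells were sorted for high GFP, then kept resting or placed on plates that carried tetramers of mouse CD1d with its lipid ligand PBS57 (mCD1d-PBS57). The transgene and the reporter allele are thus shared by the resting cells, and the sort rested on the Cxcr6 reporter. The tissue label is liver, the sort protocol names livers or spleens, and the RNA protocol speaks of islets. How long the cells stayed on the plates, and how many mice a library holds, is not stated in these sources.

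NKT cells are T lymphocytes with a semi-invariant receptor for lipids held by CD1d, and they make cytokines within hours of receptor signalling. Angptl2 encodes a secreted angiopoietin-like glycoprotein with a coiled coil and a fibrinogen-like domain, known for its part in tissue inflammation and for binding integrin α5β1. Hbegf encodes heparin-binding EGF-like growth factor, which is made as a membrane protein, shed by metalloproteinases of the ADAM family, and recognised by the EGF receptor and ErbB4. Slc17a6 encodes VGLUT2, the transporter that loads glutamate into synaptic vesicles of excitatory neurons, and vesicular glutamate transporters have also been described in endocrine cells of the pancreatic islet.

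The libraries held between 4168438 and 5495521 counts. All 10 markers listed for NKT and T cells were present, at a summed level of 2956 to 3855 CPM (each count as a share of its library's size, with that size adjusted by TMM, edgeR's method for scaling libraries to each other). By edgeR's test 2 of the 10 fell, where 12.1% of all genes tested did. Klrb1c, which encodes the NK1.1 antigen, had 552 and 814 counts at rest and 14 and 67 after stimulation (log2 fold change -4.13 ± 0.52, adjusted p = 2.9e-06). Cxcr6, the gene of the sort reporter, had 7807 and 5159 counts at rest and 2022 and 3551 after stimulation (-1.26 ± 0.40, adjusted p = 0.0190, and 0.111 and 0.346 without resting or tetramer library 4). All 6 islet markers were present as well, among them Ins1, Ins2 and Gcg. Their summed level was 267 and 979 CPM in resting libraries 4 and 5 and 237 and 428 CPM in tetramer libraries 4 and 5, so resting library 5 stood apart. None of the 6 was called different between the groups. Of 9 neuron markers Snap25 and Map2 were present, with a summed level of 8.28 and 20.3 CPM at rest and 4.91 and 5.05 CPM after stimulation, and Rbfox3, Tubb3 and Syn1 were not analysed here. Of 8 hepatocyte markers only Ttr was analysed, at 5 to 11 counts. Of 6 dendritic cell markers 4 were analysed. Xcr1 stood at 319 counts in tetramer library 4 and between 1170 and 1241 in the others (log2 fold change -0.69 ± 0.44, adjusted p = 0.247). Siglech had 17 and 62 counts at rest and 16 and 29 after stimulation (-0.87 ± 0.67, adjusted p = 0.352). Itgax had 3 and 1 counts at rest and 21 and 18 after stimulation (3.16 ± 0.83, adjusted p = 0.00641, and 0.142 and 0.0700 without tetramer library 4 or 5). Zbtb46 had 4 and 13 counts at rest and 17 and 54 after stimulation (1.99 ± 0.74, adjusted p = 0.0479), a call lost under most alternatives, such as 0.0891 by DESeq2 and 0.630 without tetramer library 5. The part of these markers in the values of Angptl2, Hbegf and Slc17a6 was not tested. In bulk RNA, fewer cells of a type and less RNA per cell cannot be told apart.

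Angptl2 and Slc17a6 were both chosen for their rise after stimulation, and shared control of their transcription was not tested. The stretches before their first annotated starts are given from RefSeq (GRCm38.p6, both on the plus strand). The counts were made on another build, mm9, and carry no positions. Each was searched on both strands for the core of NFAT sites (GGAAA), an AP-1 site (TGANTCA), a CRE (TGACGTCA), an Egr site (GCGTGGGCG), an NF-kB site and a TATA box (TATAAA). Capitals mark each match.
Angptl2, chr2:33215711-33215950: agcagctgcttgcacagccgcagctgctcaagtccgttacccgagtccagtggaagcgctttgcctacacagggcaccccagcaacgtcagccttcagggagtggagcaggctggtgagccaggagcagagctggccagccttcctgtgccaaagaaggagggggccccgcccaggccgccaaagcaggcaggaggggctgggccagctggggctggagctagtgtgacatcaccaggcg
Slc17a6, chr7:51621580-51621829: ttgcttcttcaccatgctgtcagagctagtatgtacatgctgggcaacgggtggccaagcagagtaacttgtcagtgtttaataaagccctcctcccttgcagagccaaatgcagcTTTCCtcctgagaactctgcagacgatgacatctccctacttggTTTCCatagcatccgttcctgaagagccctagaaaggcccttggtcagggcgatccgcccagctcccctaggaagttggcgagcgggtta

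In the 250 bases before the Slc17a6 start the NFAT core was found in 2 places, both on the minus strand (TTTCC), with the first base of each match at -134 and -90 from the start. The same letters occur in 55.6% of the 32851 RefSeq windows of 250 bases, so most promoters hold them. No other motif was found there, and none of the 6 was found in the 240 bases shown for Angptl2. The Angptl2 stretch was 65.8% G and C, against a median of 52.4% over all windows, and 15.5% of windows had a higher share. The Slc17a6 stretch was 53.2% G and C. The window before a later annotated start of Slc17a6 held the core once, at -150. A match describes letters in the window and not a bound site. Of the 3 genes, Angptl2 and Slc17a6 were matched in the promoter table, and Hbegf was not.

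Angptl2 had 1 count in each resting library, 522 counts in tetramer library 4 and 206 in tetramer library 5. Both tetramer libraries lay far above both resting libraries, as the choice of the gene required, and the tetramer libraries differed from each other. On the CPM scale the level was 0.210 ± 0.00461 at rest and 74.2 ± 46.0 after stimulation (SD, n = 2 each). With the same count in both resting libraries, the resting SD comes only from their scaling and does not measure the spread between them. The ratio of summed scaled counts, tetramer over resting, was 352, with an exact (Clopper-Pearson) 95% interval of 97.1 to 2912 that covers counting error only. Against the pooled resting libraries the ratio was 508 (140 to 4203) in tetramer library 4 and 198 (54.1 to 1646) in tetramer library 5.

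Hbegf had 3 counts in each resting library, 260 in tetramer library 4 and 208 in tetramer library 5. Its 2 libraries in each group lay close together. That the groups did not overlap was given by the choice of the gene. The level was 0.631 ± 0.0138 CPM at rest and 47.6 ± 7.86 CPM after stimulation (SD, n = 2 each). Its resting counts were also the same, so that resting SD again comes only from the scaling. The ratio of summed scaled counts was 75.4 (95% interval 34.4 to 207). By single tetramer library it was 84.3 (38.2 to 232) in library 4 and 66.7 (30.1 to 184) in library 5.

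For Slc17a6 the resting libraries held 1 and 2 counts (libraries 4 and 5), and the tetramer libraries 140 and 150. The stimulated libraries were nearly level with each other. Here too the choice of the gene fixed that the groups did not overlap. The level was 0.317 ± 0.156 CPM at rest and 29.5 ± 1.20 CPM after stimulation (SD, n = 2 each). Its ratio of summed scaled counts was 93.5 (95% interval 31.7 to 456), and the single tetramer libraries gave 90.8 (30.4 to 445) and 96.1 (32.3 to 471). The islet markers were highest in resting library 5, where Slc17a6 had 2 counts, and their part in the values of Slc17a6 was not tested. Of the neuron markers, Snap25 had 26 and 90 counts at rest and 12 and 14 after stimulation (log2 fold change -2.21 ± 0.68, adjusted p = 0.0179, and 0.294 without resting library 5, 0.172 without tetramer library 4 and 0.0912 without library 5). Map2 had 14 and 5 counts at rest and 12 and 11 after stimulation (0.23 ± 0.72, adjusted p = 0.840). Their part was not tested either.

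**Figure D1:**
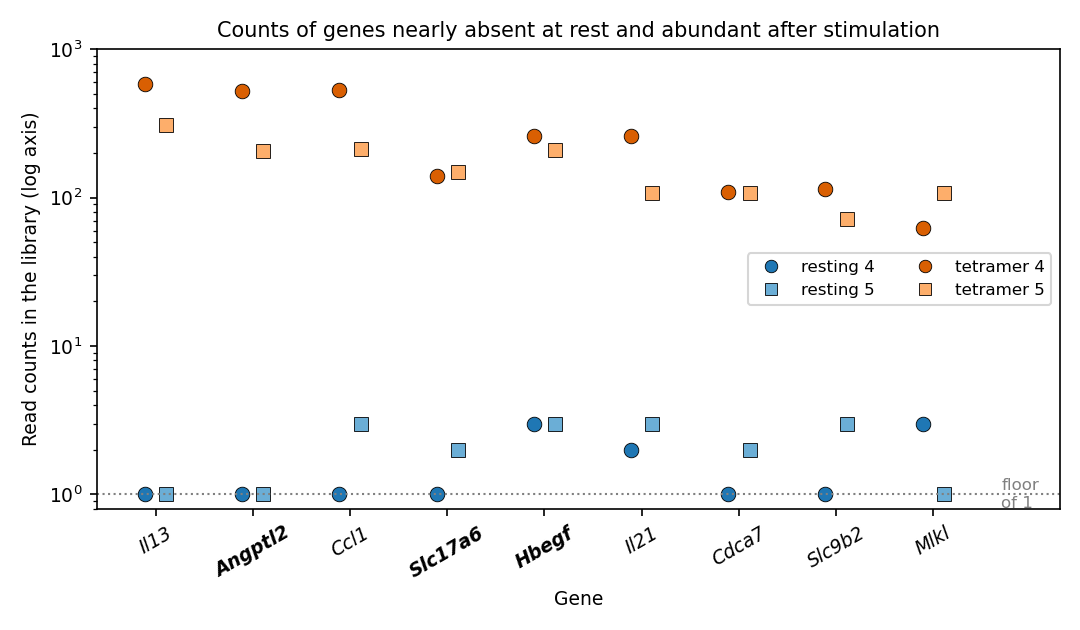
Read counts per library on a log axis for the 9 genes with at most 3 counts in each resting library (blue) and at least 50 in each tetramer library (orange), ordered by ratio, with circles for libraries numbered 4 and squares for libraries numbered 5. The dotted line is the lowest value in the table, 1 count, where both resting libraries of Angptl2 and Il13 lie.

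No value in the table lies below 1, so the resting values of these genes rest on its floor or just above it. A count of 1 was recorded for 119 genes in resting library 4 and 157 in resting library 5, against 12 and 39 in tetramer libraries 4 and 5. Both resting libraries were at 1 for 31 genes, and both tetramer libraries for 2. Among those 31 genes the median of the summed tetramer counts was 42, and Angptl2, with 728, was second to Il13, with 889. The next had 119. The table does not tell whether 1 is a read or an added constant. If it is a read, genes with 0 reads in a library may have been left out before deposit, and such genes could not be counted in either direction here. If 1 was added to every value, Angptl2 had 0 reads at rest, and its ratio was at least 235-fold against a floor of 3 counts over the resting group. Hbegf then had 4 reads at rest and a ratio of 113 (44.0 to 418), and Slc17a6 had 1 read at rest and a ratio of 280 (49.9 to 11103). The floor thus moved the ratio of Slc17a6 by more than that of Hbegf, with wide intervals for both. With the counts taken as reads, 6 counts at rest put the exact Poisson interval of the resting level at 0.231 to 1.37 CPM for Hbegf. For Angptl2 it was 0.0254 to 0.759 CPM and for Slc17a6 0.0650 to 0.921 CPM.

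The 3 genes differed in how level they were between the tetramer libraries. Angptl2 was 2.56 times as high in tetramer library 4 as in library 5 (95% counting interval 2.18 to 3.03). For Hbegf this ratio was 1.26 (1.05 to 1.52), and for Slc17a6 it was 0.944 (0.744 to 1.20), an interval that includes no difference. Of the 5156 genes with at least 100 counts in both tetramer libraries, 1.28% differed between them by more than Angptl2 did, 50.7% by more than Hbegf and 87.5% by more than Slc17a6. The level of Angptl2 after stimulation therefore depends on the library, while Hbegf lay near the middle of these genes and Slc17a6 below it. With 1 library on each side these are descriptions of 2 libraries.

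Few genes of the table had the pattern by which the 3 were chosen. At most 3 counts in each resting library and at least 50 in each tetramer library were found for 9 genes, 0.0749% of those analysed, and the reverse for 0 genes. Besides Angptl2, Hbegf and Slc17a6 they were Il13, Ccl1 and Il21, which encode secreted immune mediators, Cdca7, a Myc target, Slc9b2, a sodium-proton exchanger, and Mlkl, the executor of necroptosis. By ratio, Angptl2 ranked 2 of 9, Slc17a6 ranked 4 and Hbegf 5, after Il13 at 430 (119 to 3555) and Ccl1 at 180 (69.9 to 661). Their intervals overlap widely, so the order is not settled by these counts. Il21 followed at 71.2 (30.2 to 220) and Cdca7 at 69.9 (23.6 to 342). At the lower end of the 9 were Slc9b2, with 1 and 3 counts at rest and 114 and 72 after stimulation, and Mlkl, with 3 and 1 at rest and 62 and 108 after stimulation. Just outside lay Egr3, with 4 and 2 counts at rest and 175 and 160 after stimulation, and Gem, with 1 in each resting library and 47 and 72 after stimulation, the latter chosen after its values were seen. Ccl1, Il21, Il13 and Slc9b2 were, like Angptl2, higher in tetramer library 4, by 2.50, 2.44, 1.92 and 1.60 times. Cdca7 was level between the tetramer libraries (1.04), as Slc17a6 was, and Mlkl was lower in library 4 (0.581).

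**Figure D2:**
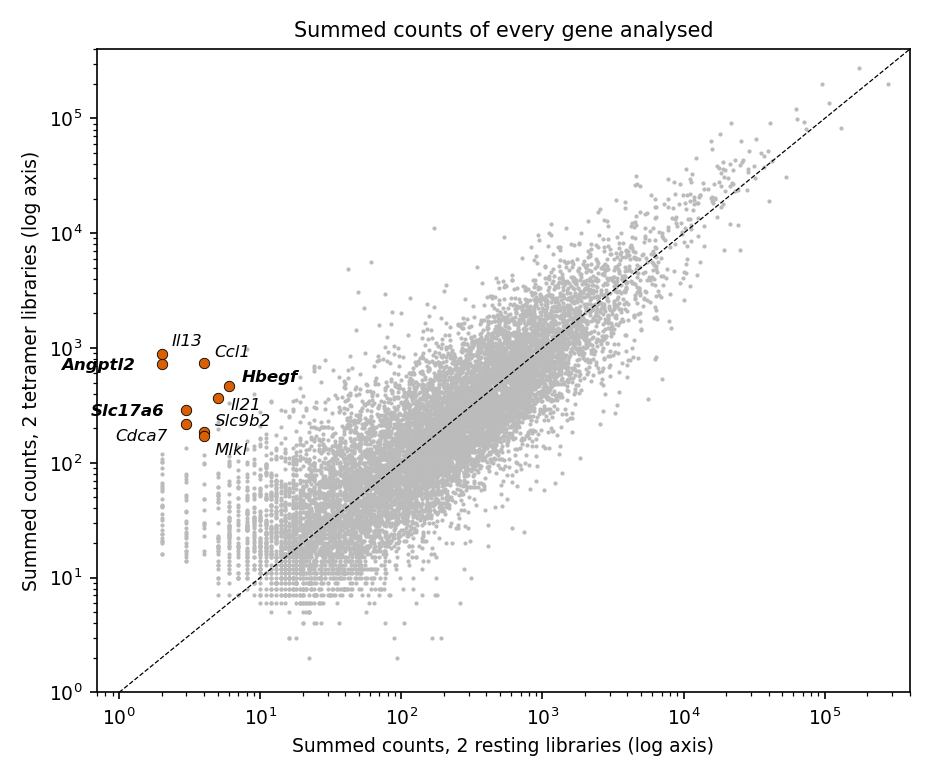
Summed counts of the 2 tetramer libraries against those of the 2 resting libraries for each of the 12020 genes, on log axes, with a dashed line at equal counts. The 9 genes of the pattern (orange) lie at 2 to 6 resting counts and 170 to 889 tetramer counts, at the upper left edge of the cloud.

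Profiles were compared over the 4 libraries as log2 CPM (prior count 2) centred on each gene's own mean, by Euclidean distance, where 0 means the same shape. The nearest to Angptl2 was Il13, at a distance of 0.47, then Ccl1 (0.63), Gzmb (0.97), Ifng (0.97) and Ccl4 (1.33), the genes of a type 2 cytokine, a chemokine, granzyme B, interferon gamma and another chemokine. Hbegf and Slc17a6 lay near each other, at 0.44. For Hbegf the next were the transcription factors Egr3 (0.62) and Hivep3 (0.65), then Cdca7 (0.66) and Ifng (0.67). For Slc17a6 the nearest was Cdca7 (0.42), and after Hbegf came Hivep3 (0.78), Egr3 (0.78) and Rgs16 (0.84), a regulator of G protein signalling. These distances describe shapes over 4 libraries and carry no test. The members were chosen for a large rise in these same libraries. Their nearness to each other and to other genes with a large rise follows in part from that choice.

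**Figure D3:**
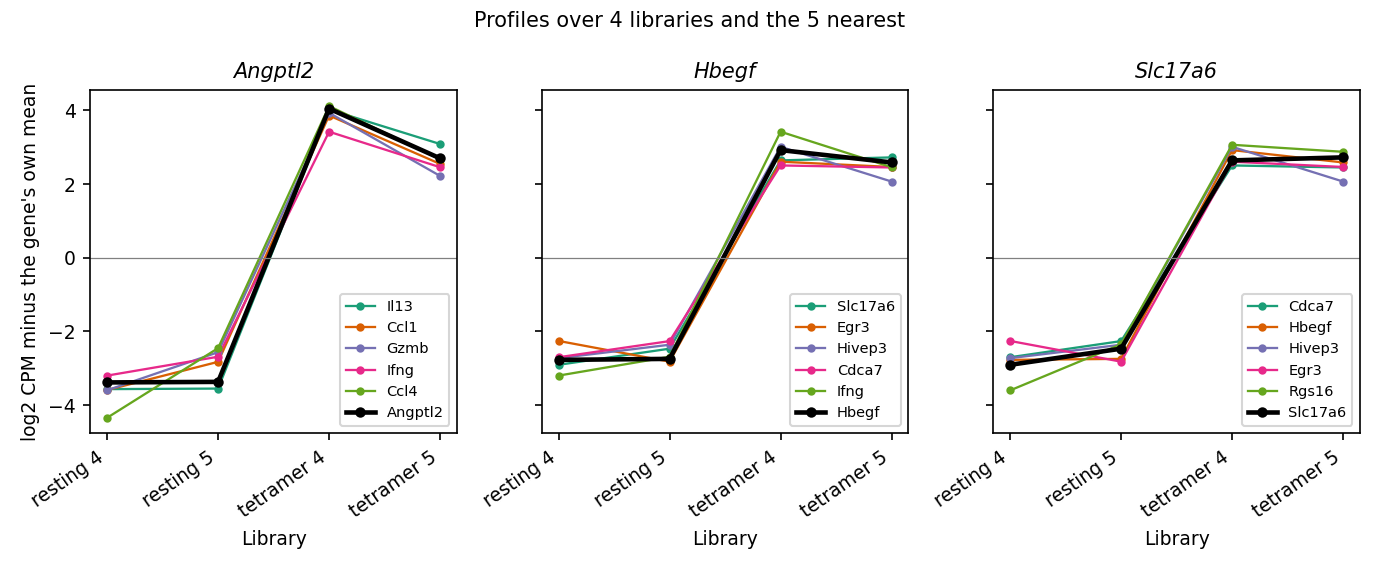
Log2 CPM minus the gene's own mean in each of the 4 libraries for Angptl2, Hbegf and Slc17a6 (black) and for the 5 genes nearest to each (colours), where lines only join points of the same gene. Angptl2 and its neighbours are higher in tetramer library 4 than in library 5, while Slc17a6 is level between them.

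The partners of the 3 genes were tested with edgeR's quasi-likelihood test over all 11312 genes that passed the expression filter, of which 14.3% were called higher and 12.1% lower after stimulation at an adjusted p below 0.05. The calls of each list below are to be read beside these shares, and no list was tested against them. A missing call does not show that a gene stayed level. With simulated data the test detected 1 of 50 genes at a 2-fold shift and 27 of 50 at 4-fold. Those data gave 75 calls, against 1620 higher and 1366 lower here, so the adjusted threshold was stricter there. They also gave every gene the same spread, so these shares do not measure how many real shifts were detected. Separate mice or cultures are not stated for libraries of the same group, so the p-values rest on a spread that may be technical. Log2 fold changes compare tetramer with resting cells and are given with an SE. That SE was derived from the fold change and the F statistic of its test, and was not fitted on its own.

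The other EGF family ligands analysed were not called, but 2 tested genes are too few to set against 14.3% and 12.1% over all genes. Of 10 listed, 3 were analysed, 2 passed the filter and 0 were called by edgeR, DESeq2 or limma-voom in either direction. At an unadjusted p under 0.05, 0 were higher and 1 was lower. Betacellulin, Btc, had 21 and 26 counts at rest and 13 and 15 after stimulation, a log2 fold change of -0.79 ± 0.66 (adjusted p = 0.388). The neuregulin Nrg3 had 28 and 42 counts at rest and 8 and 15 after stimulation, -1.65 ± 0.68 (adjusted p = 0.0701), and it was called lower without resting library 4 (adjusted p = 0.0227). Nrg4 stayed under the filter, with 4 to 11 counts. The receptors Egfr, Erbb2, Erbb3 and Erbb4 were not analysed here. Of 8 receptors and inhibitors 2 were tested, with 0 higher and 1 lower by edgeR, DESeq2 and limma-voom alike. Lrig1, a membrane protein that promotes receptor degradation, fell from 44.1 ± 2.30 to 16.7 ± 4.73 CPM (SD, n = 2 each; log2 fold change -1.40 ± 0.45). Its adjusted p of 0.0220 rose to 0.0940 without tetramer library 4 and 0.227 without tetramer library 5. Lrig2 had a log2 fold change of -0.94 ± 0.58 (adjusted p = 0.233), and the feedback inhibitor Errfi1 stayed under the filter, with 4 and 1 counts at rest and 9 and 10 after stimulation.

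Proteases and partners of the HB-EGF precursor were present at rest. Their calls are to be read beside 14.3% higher and 12.1% lower over all genes. Of 17 listed, 12 were tested, with 1 higher and 0 lower by edgeR (3 and 1 at an unadjusted p under 0.05; DESeq2 called 1 and 0, limma-voom 0 and 0) and a median log2 fold change of 0.36, against -0.06 over all genes tested. The main sheddase of EGF ligands, Adam17, had 166 and 179 counts at rest and 169 and 207 after stimulation, a log2 fold change of 0.07 ± 0.42 (adjusted p = 0.916). Adam10, a related sheddase, had 610 and 409 counts at rest and 470 and 435 after stimulation (-0.22 ± 0.37, adjusted p = 0.702). The counts of both sheddases overlapped between the groups. The share of all genes with such overlap was not taken, so this does not set the sheddases apart. Adam15 rose from 2.52 ± 0.539 to 10.1 ± 7.41 CPM (SD, n = 2 each; log2 fold change 1.99 ± 0.69, adjusted p = 0.0326), with 75 counts in tetramer library 4 and 24 in library 5. Without tetramer library 4 its log2 fold change was 0.96 and its adjusted p 0.660, and without resting library 5 the adjusted p was 0.0587. It was 0.0566 with libraries scaled by their totals and 0.0688 by limma-voom. Zbtb16 encodes PLZF, the lineage factor of NKT cells and a known binder of the cytoplasmic tail of HB-EGF. It had 269 and 301 counts at rest and 396 and 752 after stimulation, a log2 fold change of 0.96 ± 0.39 that did not pass (adjusted p = 0.0687). Nrd1, which encodes the peptidase nardilysin that binds HB-EGF, had a log2 fold change of 0.71 ± 0.38 (adjusted p = 0.174). Cd9, whose product associates with the precursor at the membrane, had 30 and 13 counts at rest and 25 and 4 after stimulation.

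In the angiopoietin family Angptl2 was joined by 1 relative that edgeR called higher and 1 that it called lower. Of 13 genes listed with their receptors 6 were tested, with a median log2 fold change of 0.28. Among the 6 tested, 2 were higher and 1 lower, beside 14.3% and 12.1% over all genes. Angptl4, an inhibitor of lipoprotein lipase, had 28 and 24 counts at rest and 100 and 77 after stimulation, and rose from 5.46 ± 0.475 to 18.0 ± 3.45 CPM (SD, n = 2 each; log2 fold change 1.72 ± 0.56, adjusted p = 0.0234). Its adjusted p was 0.266 without tetramer library 4, 0.0771 without library 5 and 0.0539 with libraries scaled by their totals. Angptl7 had 37 and 85 counts at rest and 12 and 13 after stimulation, and fell by 2.33 ± 0.66 on the log2 scale (adjusted p = 0.0101). That call was lost without resting library 5 (log2 fold change -1.56, adjusted p = 0.0740), the library with the highest islet markers, and without tetramer library 4 (0.133) or 5 (0.0770). The part of islet transcripts in it was not tested. Angptl6 had a log2 fold change of -0.68 ± 0.66 (adjusted p = 0.467), which was 0.40 without resting library 4. Angpt2, a ligand of the Tie2 receptor, had 74 and 55 counts at rest and 11 and 32 after stimulation (-1.63 ± 0.62, adjusted p = 0.0519). It was called lower with libraries scaled by their totals (0.0182) and with at least 10 counts in every library (0.0350). With the column number as a replicate block (0.0187) and by limma-voom (0.0365) it was called too. DESeq2 (0.0597), median-of-ratios scaling (0.0554), no filter (0.0570) and 1 subtracted from every count (0.0578) gave no call. Without resting library 5 its log2 fold change was -1.78, and without tetramer library 4 it was -1.04.

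The integrin chains that bind Angptl2 were present in these cells. Itgb1, integrin β1, had 353 and 378 counts at rest and 897 and 899 after stimulation, and rose from 76.9 ± 5.40 to 182 ± 1.20 CPM (SD, n = 2 each; log2 fold change 1.25 ± 0.36, adjusted p = 0.0128). Its adjusted p was 0.0572 without resting library 4, 0.103 without tetramer library 4 and 0.0608 without library 5, while its log2 fold change stayed between 1.19 and 1.34. With libraries scaled by their totals it was 0.96 (adjusted p = 0.0533). Itga5, integrin α5, had 26 and 3 counts at rest and 42 and 30 after stimulation (1.27 ± 0.73, adjusted p = 0.199). Resting library 4 decided that value, which was 3.48 without it (adjusted p = 0.00238). Pirb, the mouse member of the receptor family that includes a human ANGPTL2 receptor, stayed under the filter, with 8 to 10 counts in each library.

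No tested relative of Slc17a6 was called higher, but 14.3% of all genes tested were, so 0 of 5 does not set the list apart. Of 13 genes for vesicular transmitter transporters 5 were tested, with 0 higher and 1 lower by edgeR (0 and 2 at an unadjusted p under 0.05; DESeq2 and limma-voom called 0 and 1) and a median log2 fold change of -0.62. Slc17a8, which encodes the vesicular glutamate transporter VGLUT3, had 55 and 105 counts at rest and 47 and 61 after stimulation (-0.62 ± 0.53, adjusted p = 0.406). Slc17a9, the vesicular nucleotide transporter, had 48 and 74 counts at rest and 49 and 53 after stimulation (-0.31 ± 0.54, adjusted p = 0.706, and 0.085 without resting library 5). Slc17a5, the lysosomal sialic acid transporter, had a log2 fold change of 0.04 ± 0.53 (adjusted p = 0.968), which was -0.26 when libraries were scaled by their totals, -0.083 without resting library 5 and -0.13 without tetramer library 5. All 3 were present in both groups, with overlapping counts, but without the share of all genes that overlap this does not set them apart. Slc18b1, a vesicular polyamine transporter, had 34 and 105 counts at rest and 15 and 14 after stimulation, and fell by 2.31 ± 0.66 on the log2 scale (adjusted p = 0.0107). The adjusted p was 0.174 without resting library 5 (log2 fold change -1.22), 0.101 without tetramer library 4 and 0.0783 without library 5, and resting library 5 again held the most islet transcripts, whose part was not tested. The monoamine transporter Slc18a2 had 39 and 83 counts at rest and 30 and 21 after stimulation (-1.31 ± 0.61, adjusted p = 0.108), and it was called lower without resting library 4 (-1.75, adjusted p = 0.0212).

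Enzymes and plasma membrane transporters that handle glutamate were higher in 4 and lower in 1 of 16 cases tested, with a median log2 fold change of 0.19. Over all genes tested 14.3% were higher and 12.1% lower. Slc1a5, a carrier of glutamine and other neutral amino acids, rose from 155 ± 8.89 to 517 ± 39.7 CPM (log2 fold change 1.74 ± 0.37, adjusted p = 0.00109). Got2, the mitochondrial aspartate aminotransferase, rose from 34.2 ± 5.49 to 129 ± 20.9 CPM (1.91 ± 0.39, adjusted p = 0.000696). Both kept their calls when any single library was left out. Its cytosolic counterpart Got1 rose by 1.39 ± 0.43 on the log2 scale (adjusted p = 0.0167, and 0.0834 without resting library 5, 0.199 without tetramer library 4 and 0.0566 with libraries scaled by their totals). Gpt2, mitochondrial alanine aminotransferase, had 2 and 3 counts at rest and 24 in each tetramer library (3.15 ± 0.79, adjusted p = 0.00464, and 0.0995 and 0.0684 without tetramer library 4 or 5). The member that fell was Slc1a7, a glutamate carrier, with 112 and 159 counts at rest and 49 and 45 after stimulation (-1.58 ± 0.50, adjusted p = 0.0205). Leaving out resting library 5 ended the call (0.0857), as did leaving out tetramer library 4 (0.162) or tetramer library 5 (0.150).

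Of 24 genes for glutamate receptors 9 were tested and 0 were called in either direction by edgeR, DESeq2 or limma-voom, with 0 higher and 1 lower at an unadjusted p under 0.05. Their log2 fold changes lay between -1.40 and 1.17, with a median of 0.11. In the exocytosis machinery of lymphocytes 2 of 15 tested genes were higher and 2 lower, with a median log2 fold change of 0.00. Unc13d, a priming factor of cytotoxic granules, rose by 1.99 ± 0.54 on the log2 scale (adjusted p = 0.00835, and 0.256 without tetramer library 4), and the syntaxin Stx11 by 1.29 ± 0.42 (0.0241, and 0.120, 0.0634 and 0.227 without resting library 4 or tetramer library 4 or 5, and 0.0689 with libraries scaled by their totals). Vamp4, a vesicle SNARE, changed by -1.37 ± 0.49 (adjusted p = 0.0380, and 0.0587, 0.369 and 0.100 without resting library 5 or tetramer library 4 or 5). Syt11, a synaptotagmin, changed by -1.06 ± 0.38 (adjusted p = 0.0401, and 0.0993 and 0.486 without resting or tetramer library 4). The 2 of 15 in each direction lie near the 14.3% and 12.1% over all genes.

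**Figure D4:**
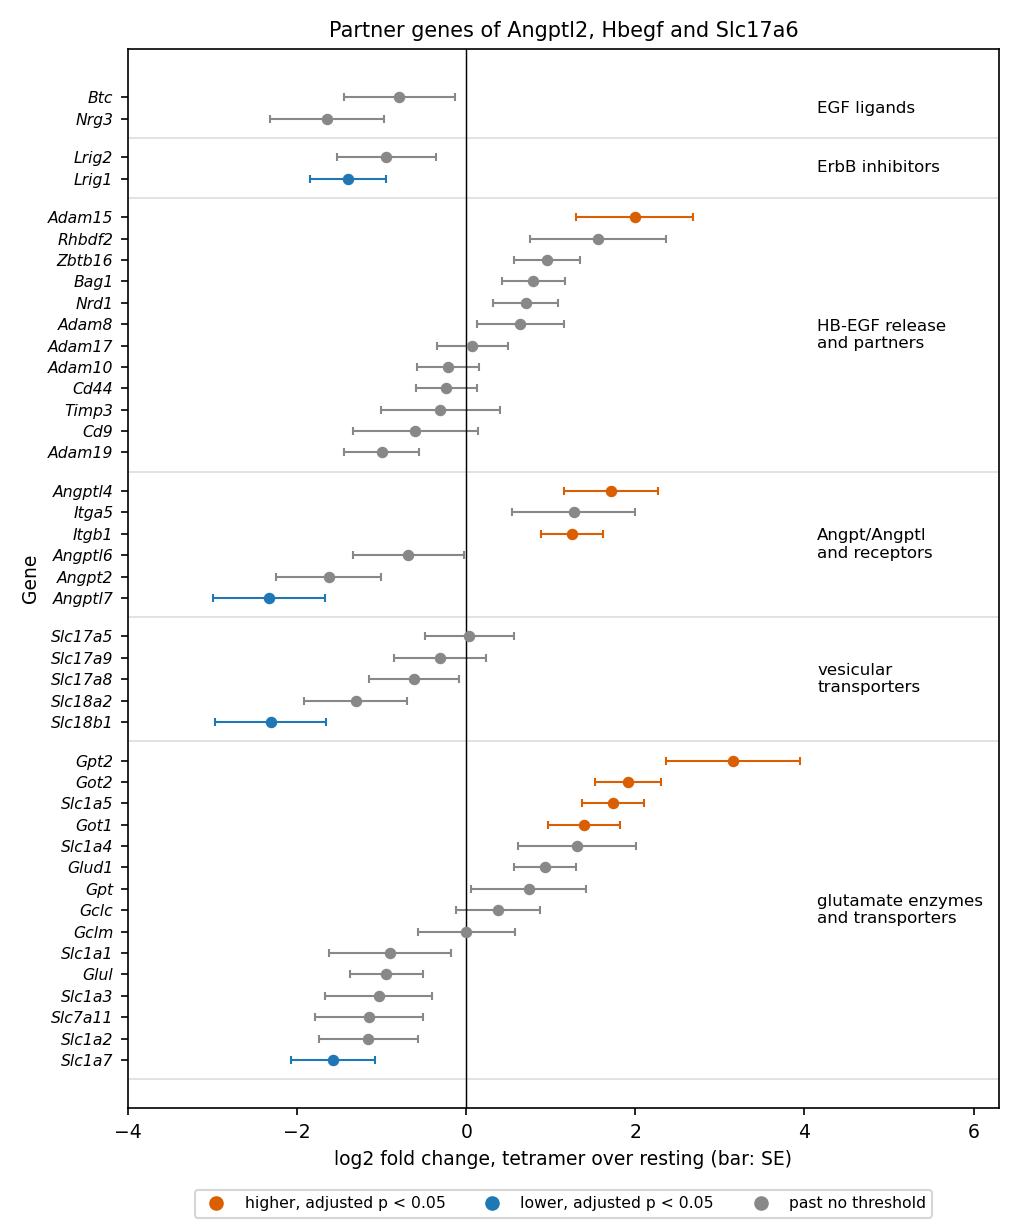
Log2 fold change (tetramer over resting) with its SE for tested partner genes of HB-EGF, Angptl2 and VGLUT2, grouped by list (glutamate receptors and exocytosis genes are not drawn). Orange points passed the threshold upward, such as Gpt2 at 3.15, blue points downward, such as Angptl7 at -2.33, and grey points passed no threshold.

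Genes next to the 3 members were compared with them, since the counting is not stated to use strand and reads from overlapping genes could be assigned to either. By RefSeq order Angptl2 lies within the span of Ralgps1, an exchange factor for Ral GTPases on the opposite strand, and the 2 genes share 0 exon bases in the GENCODE annotation of GRCm38. Ralgps1 had 66 and 24 counts at rest and 25 and 19 after stimulation (log2 fold change -1.07 ± 0.64, adjusted p = 0.222). The assignment of reads between the 2 genes was not tested. On one side Garnl3 had 19 and 32 counts at rest and 7 and 4 after stimulation (-2.24 ± 0.73, adjusted p = 0.0239, and 0.0600, 0.198 and 0.293 without resting library 5 or tetramer library 4 or 5, and 0.0682 by DESeq2). On the other, the zinc finger genes Zbtb34 and Zbtb43 stood at -0.35 ± 0.52 and -0.39 ± 0.41 on the log2 scale (adjusted p = 0.647 and 0.504), and at 0.13 and 0.20 without resting library 4. Next to Hbegf, the prefoldin subunit gene Pfdn1 had 182 and 335 counts at rest and 796 and 659 after stimulation and rose by 1.44 ± 0.39 on the log2 scale (adjusted p = 0.00812, and 0.0915 and 0.0993 without resting or tetramer library 4). On its other side Ankhd1 had a log2 fold change of -0.49 ± 0.37 (adjusted p = 0.335). The other 4 of the 6 nearest genes, and an RNA gene that overlaps Hbegf, were not analysed here. None of the 6 nearest genes to Slc17a6, nor the RNA gene that overlaps it, was analysed here. No analysed neighbour had a change near the size of those of Angptl2 and Hbegf, but these 2 were chosen for the size of their change. The comparison therefore tells nothing about the assignment of reads or the neighbourhood of the genes, which was not tested.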

How the data were processed

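RNA was sequenced from 4 libraries, 2 resting and 2 tetramer-stimulated. The authors deposited whole-number read counts per gene symbol. Bowtie2, DESeq2 and the build mm9 are named, without versions, per the submitters' processing notes, and neither the counting program nor the use of strand is stated. Per the labels' protocols, fragments of 200 to 400 nt were amplified with 23 PCR cycles, and such reads are not independent molecules. Columns carry a group name and a number, 4 or 5, which no label gives, so they were mapped to groups only. The row of Tmem138, with a cell that is not a number, was left out, and 18 symbols turned into dates were tested but not named.

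The test was that of edgeR 4.0.16 under R 4.3.3 (quasi-likelihood F test, default filter, TMM factors of 0.890 to 1.16, Benjamini-Hochberg adjustment over 11312 genes, threshold 0.05), with limma 3.58.1 and DESeq2 1.42.0 as alternatives, and the fit was tested on simulated data. In those data the test detected 0 of 50 genes with a 1.5-fold shift and 1 of 50 at 2-fold. At 4-fold it detected 27 of 50, and at 8-fold 45 of 50. Among its 75 calls 2 were false. The real data gave many more calls and spreads that differ by gene, so the simulated shares do not carry over to them. A gene without a call may still differ, most of all by small amounts. The common coefficient of variation was 0.322. The 3 members, the 8 partner lists and the 10 marker lists were chosen with earlier results of these data known. Named genes were the members, the measured members of the 4 families around them, up to 4 called members per direction of the other lists, the nearest 3 genes on each side, the genes with the members' count pattern and the 5 nearest profiles. Ratios at low counts have exact 95% intervals. Of the promoters, the 250 bases before each start were searched, cut where an annotated transcript began earlier. Of the glutamate list 1 gene is counted but not reported here.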

Additional observations from a re-analysis of the deposited data

How the results depend on the processing

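The log2 ratios of Angptl2, Hbegf and Slc17a6 (8.46, 6.24 and 6.55) ranged from 7.65 to 8.995, 6.08 to 6.40 and 6.12 to 7.18 when single libraries were left out. Hbegf was at 5.94 when scaled by library totals alone, and with 1 subtracted from every count Hbegf was at 6.82 and Slc17a6 at 8.13 (4 and 1 resting counts were then left). Library totals moved the median gene from -0.06 to -0.35 on the log2 scale and split the calls into 1194 higher and 2248 lower, against 1620 and 1366, so directions are relative to the scaling. With 1 library left out the calls ranged from 622 to 1630 higher and 313 to 1485 lower, lowest without tetramer library 4; without tetramer library 5 there were 1157 and 673. The lone library of a group was then assumed to vary like the other group. With the column number as a replicate block 1693 genes were higher and 1468 lower, but deviations of same-numbered libraries correlated at 0.049, so the numbers were not taken to pair them.

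Among partner lists with library totals, members called lower numbered 1 (EGF ligands), 1 (HB-EGF release), 2 (angiopoietin family), 2 (vesicular transporters), 2 (glutamate enzymes) and 1 (glutamate receptors), and members higher 0 (HB-EGF release), 0 (angiopoietin family) and 1 (exocytosis). Under the replicate block 1 EGF ligand and 2 angiopoietin family genes were lower, as were 2 of the latter by limma-voom and with at least 10 counts in every library, and limma-voom called 0 genes of HB-EGF release higher. Leaving out single libraries gave 0 to 1 EGF ligands lower, 0 to 1 ErbB inhibitors in either direction, 0 to 2 HB-EGF release genes higher and 0 to 1 lower, 0 to 2 angiopoietin family genes higher and 0 to 1 lower, 0 to 2 vesicular transporters lower, 2 to 4 glutamate genes higher and 0 to 3 lower, 0 to 1 glutamate receptors in either direction, and 0 to 3 exocytosis genes higher and 0 to 2 lower. The cause was not tested. Of 368 comparisons of named partner genes with an alternative, 307 kept direction and side of the threshold, 43 lost and 11 gained a call and 7 changed sign, all 7 in genes that were not called (Slc17a5 was -0.26 with library totals; without single libraries Angptl6 ranged from -1.27 to 0.40, Slc17a5 from -0.13 to 0.21, Slc17a9 from -0.59 to 0.085, Zbtb34 from -0.68 to 0.13 and Zbtb43 from -0.78 to 0.20).

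The 9 genes with at most 3 resting and at least 50 tetramer counts became 30 with a tetramer minimum of 20, 2 with a resting maximum of 1 and 12 to 27 without single libraries (19 and 27 without resting library 4 or 5, 21 without tetramer library 5). The reverse pattern, 0 genes, became 4 with a resting minimum of 20, 3 with a tetramer maximum of 5, and 0 to 5 without single libraries. The few resting counts limit how closely the ratios are known, and their intervals cover counting error only. Alternatives for the markers Klrb1c, Cxcr6, Itgax, Zbtb46 and Snap25 were added after seeing the data.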
